A study of Mus musculus with 9 samples.

Results

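The expression of 9 receptors of the tumour necrosis factor (TNF) receptor superfamily was followed across 3 subsets of mouse γδ T cells: Tnfrsf9 (4-1BB), Tnfrsf4 (OX40), Tnfrsf18 (GITR), Tnfrsf1b (TNFR2), Tnfrsf1a (TNFR1), Tnfrsf25 (DR3), Tnfrsf14 (HVEM), Cd27 and Fas. They were chosen by gene symbol, with earlier results of these data known. Counts called among them, set beside the share of all genes, are therefore a description and no independent test. All 9 had an array row with no other symbol, and they are 9 of the 22180 genes tested. Each subset was obtained from C57BL/6 mice in 3 biological replicates, and its RNA was measured on the Mouse Gene 2.0 ST array of Affymetrix. The subset labelled IELs comes from the intestinal intraepithelial compartment, and its sample descriptions carry the abbreviation that the protocol uses for small intestine. The subsets labelled Naive-like and Type-1 both come from peripheral lymph node. No treatment or genotype separates the groups, the age of the mice is not given in the sources used here, and neither are the gates beyond a list of antibodies. IELs therefore differ from the other subsets in tissue and isolation as well as in subset, and these cannot be told apart. Whether a replicate is 1 mouse or a pool is not stated, so the p-values rest on the spread among these arrays alone.

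Receptors of this superfamily bind trimeric ligands and pass the signal on through adaptor proteins of the TRAF family to the transcription factor NF-κB, or, in receptors with a cytoplasmic death domain, also to caspases. On T cells 4-1BB, OX40, GITR, CD27, TNFR2, HVEM and DR3 are known as costimulatory receptors that add to the signal of the T cell receptor and favour survival, whereas Fas and TNFR1 are known for triggering cell death. CD27 is also a classical marker of γδ T cells that make interferon-γ.

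Levels are given as the deposited log2 values, on which a difference of 1 is a doubling of signal. They come from bulk RNA, so fewer cells of a type and less RNA per cell cannot be told apart. Array medians lay between 4.25 and 4.43, and Pearson's r between arrays was 0.947 to 0.982 within a subset and 0.912 to 0.975 between subsets. The 5 measured genes of the T cell receptor complex, Cd3e, Cd3d, Cd3g, Zap70 and Lat, averaged 10.8 to 11.0 on the IEL, 10.2 to 10.9 on the Naive-like and 10.1 to 10.4 on the Type-1 arrays. Of these 5, Cd3g (0.99) and Zap70 (1.05) were called higher in IELs against Type-1 cells, where 3.73% of all genes were. Against Naive-like cells 0 of these 5 were called by limma and 4 had an unadjusted p under 0.05, where 14.2% of all genes did. Their part in the receptor results was not tested. Replicate 3 of each subset carries a date code in its sample description that the other arrays lack, and values within the arrays with and without it are given beside the receptor, ligand and list results. A gene was called different when its Benjamini-Hochberg adjusted p over all genes in limma was under 0.05.

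The promoters of Tnfrsf9, Tnfrsf1b, Cd27 and Fas are shown first, as the 250 bases before the annotated start, 5′ to 3′ on the gene's strand (RefSeq, GRCm38.p6). Tnfrsf9 is shown from both annotated starts because it is the receptor called under every alternative tried. Tnfrsf1b was called higher and Cd27 lower in IELs against both lymph node subsets, and Fas was called higher against Type-1 cells only. Tnfrsf1a, called higher against Naive-like cells only, and Tnfrsf25, called lower against Type-1 cells only, were searched too but are not shown. Capitals mark matches to the κB consensus, a binding site of NF-κB, and to TGANTCA, the site of AP-1, searched on both strands.
Tnfrsf9 start 1, chr4:150919905-150920154, plus strand: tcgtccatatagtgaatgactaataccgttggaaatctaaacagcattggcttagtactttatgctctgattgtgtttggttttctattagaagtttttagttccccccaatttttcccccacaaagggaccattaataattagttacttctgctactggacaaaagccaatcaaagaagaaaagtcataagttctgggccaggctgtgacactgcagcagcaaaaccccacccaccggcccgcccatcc
Tnfrsf9 start 2, chr4:150927749-150927998, plus strand: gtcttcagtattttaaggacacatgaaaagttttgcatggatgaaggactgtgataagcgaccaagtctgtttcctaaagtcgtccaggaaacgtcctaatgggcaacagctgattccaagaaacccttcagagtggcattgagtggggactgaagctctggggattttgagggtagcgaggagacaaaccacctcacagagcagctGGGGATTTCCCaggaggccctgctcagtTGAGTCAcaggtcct
Tnfrsf1b, chr4:145246871-145247120, minus strand: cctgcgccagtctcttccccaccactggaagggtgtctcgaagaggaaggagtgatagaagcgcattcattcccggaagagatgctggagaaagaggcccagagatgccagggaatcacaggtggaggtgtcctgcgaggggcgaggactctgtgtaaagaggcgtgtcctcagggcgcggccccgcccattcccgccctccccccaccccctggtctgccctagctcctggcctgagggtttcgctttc
Cd27, chr6:125237028-125237277, minus strand: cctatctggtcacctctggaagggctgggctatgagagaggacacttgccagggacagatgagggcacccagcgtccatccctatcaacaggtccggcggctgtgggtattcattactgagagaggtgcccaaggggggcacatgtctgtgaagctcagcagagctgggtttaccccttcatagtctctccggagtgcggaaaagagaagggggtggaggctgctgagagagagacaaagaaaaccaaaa
Fas, chr19:34290409-34290658, plus strand: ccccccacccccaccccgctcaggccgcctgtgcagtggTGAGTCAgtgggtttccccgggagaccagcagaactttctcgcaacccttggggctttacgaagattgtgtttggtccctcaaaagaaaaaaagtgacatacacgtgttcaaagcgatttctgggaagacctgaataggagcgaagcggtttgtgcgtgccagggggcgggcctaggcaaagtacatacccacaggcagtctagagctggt
All 9 receptor genes matched the RefSeq table, with 11 starts between them. The second start of Tnfrsf9 held GGGGATTTCCC from base -43 to -33. Overlapping κB matches lie there at -43 to -34 and at -42 to -33, the latter read on both strands. This start also held TGAGTCA from -15 to -9, so it was the 1 start of the 11 with both motifs. A second start of Tnfrsf25 held the other κB match (GGGGGCCTCC, -28 to -19), and Fas held the other AP-1 match, TGAGTCA at -211 to -205. TGANTCA reads the same on both strands, so each of these is counted once here. Among 32851 mouse promoters of the same length, 7.25% held the κB consensus and 6.75% TGANTCA. A match describes these letters only.

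The arrays of IELs lay apart from those of both lymph node subsets in most of the 9 receptors. Only Tnfrsf9, Tnfrsf1b and Cd27 were called against both subsets. Against Naive-like cells 4 of 9 were called, where 5.19% of all genes were called: Tnfrsf9, Tnfrsf1b and Tnfrsf1a were higher (3.57% of all genes) and Cd27 was lower (1.62%). Against Type-1 cells 5 of 9 were called, where 5.14% of all genes were called: Tnfrsf9, Tnfrsf1b and Fas were higher (3.73%) and Cd27 and Tnfrsf25 lower (1.41%). These comparisons share the 3 IEL arrays. Between the lymph node subsets 0 of 9 were called by limma, where 0.284% of all genes were (0.212% higher and 0.0721% lower in Type-1 cells). At an unadjusted p under 0.05 there were 8 receptors against Naive-like cells (14.2% of all genes), 6 against Type-1 cells (16.3%) and 1, Tnfrsf18, between the lymph node subsets (6.48%). In an F test across the 3 subsets 6 of 9 were called, where 5.41% of all genes were. The median difference of the 9 receptors was 0.70 for IELs minus Naive-like cells and 0.20 for IELs minus Type-1 cells, beside -0.01 and -0.03 over all genes. The IEL arrays did not overlap the Naive-like arrays in 8 of the 9 receptors, where 20.1% of all genes did not overlap, and the exception was Tnfrsf14. They lay above in 5 (10.9% of all genes) and below in 3 (9.25%). They did not overlap the Type-1 arrays in 6, where 19.8% of all genes did not, and lay above in 4 (10.0%) and below in 2 (9.78%).

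**Figure D1:**
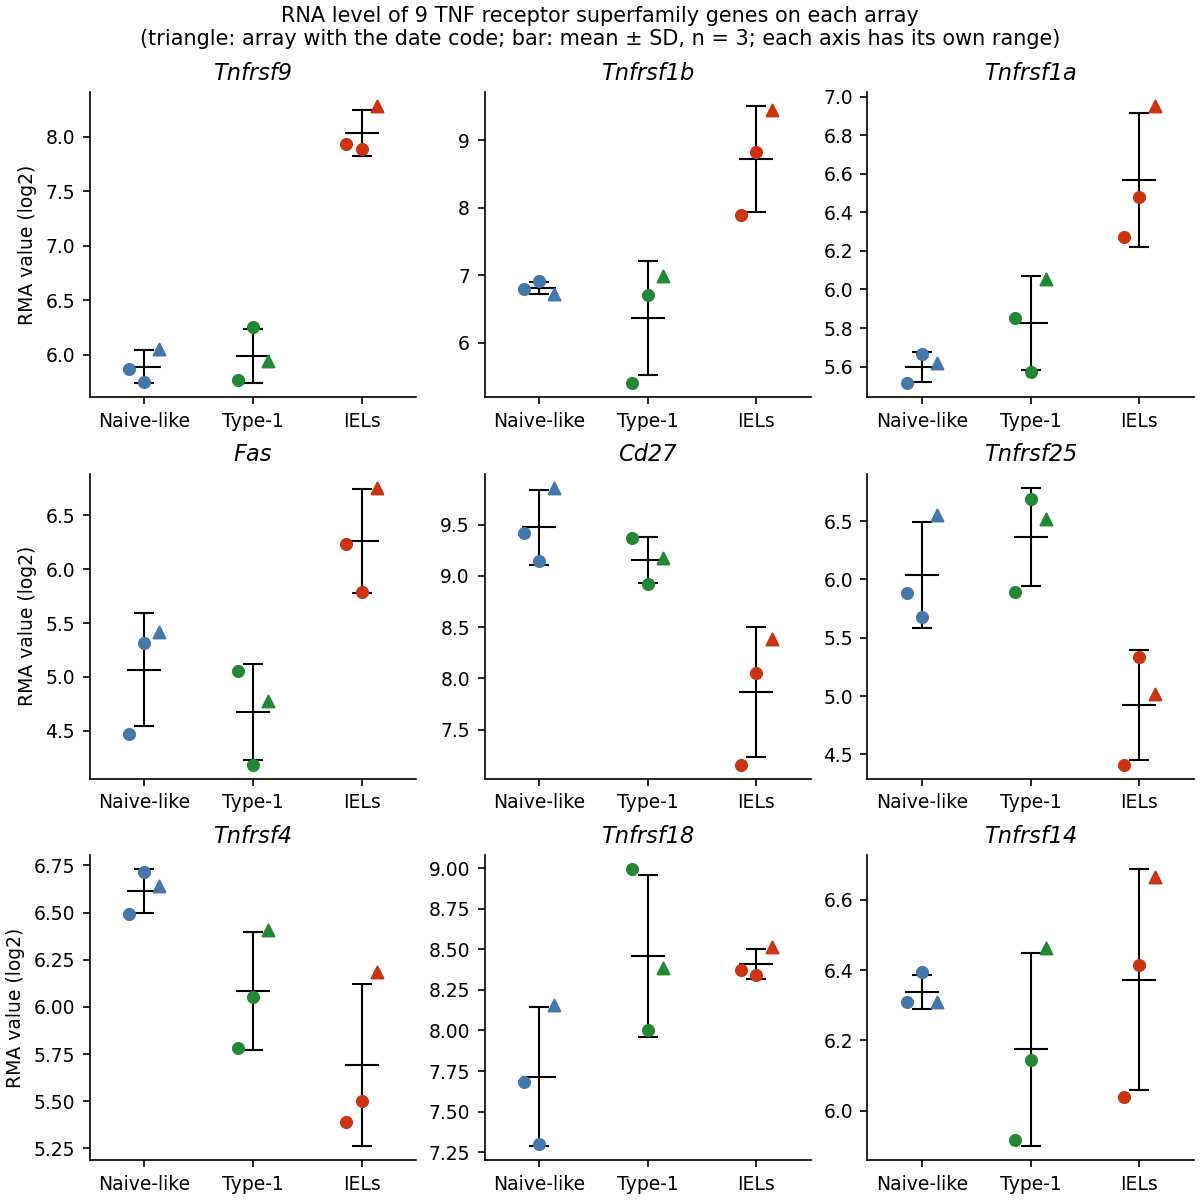
Deposited log2 value of each receptor gene on each of the 9 arrays, 1 panel per gene with its own axis range, by subset; triangles are the arrays with the date code and bars show the mean ± SD of 3 arrays. Tnfrsf9 lay between 7.89 and 8.28 in IELs and between 5.75 and 6.26 in the other subsets, and Cd27 was at most 8.39 on the IEL arrays and at least 8.92 elsewhere.

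Epithelial transcripts moved with the IEL arrays. For the marker counts below, 3.57% of all genes were called higher and 1.62% lower in IELs against Naive-like cells. Against Type-1 cells these shares were 3.73% and 1.41%. Of 18 measured markers of intestinal epithelium, 12 were called higher in IELs against Naive-like cells and 11 against Type-1 cells. Their summed linear level was 1384 to 2496 on the IEL arrays, 371 to 411 on the Naive-like and 387 to 414 on the Type-1 arrays. Of 8 Paneth cell markers 7 were higher in both comparisons, with sums of 1899 to 3205 in IELs against 95.6 to 109 and 102 to 122. The lowest value of the whole table is 0.785, and no detection calls come with the values. A level on the lymph node arrays therefore does not show that these epithelial and Paneth cell transcripts were present there. Their part in the receptor results was not tested. Of the B cell markers 0 of 7 were called by limma in any comparison. At an unadjusted p under 0.05 there were 0 in IELs against Naive-like cells (14.2% of all genes) and 1 against Type-1 cells (16.3%). Of 11 macrophage and dendritic cell markers only Itgax (CD11c), which intraepithelial T cells also carry, was called, 4.86 higher than in Naive-like cells (adjusted p = 8.71e-07, limma), while Csf1r was 3.56 to 4.12 on the IEL arrays and 3.83 to 4.22 elsewhere. Of 6 measured natural killer and innate lymphoid cell genes, which cytotoxic γδ T cells also carry, 3 were called higher and 1 lower in IELs against Naive-like cells. Against Type-1 cells 2 of them were higher and 3 lower in IELs. In Type-1 against Naive-like cells 5 were called higher, where 0.212% of all genes were. Their sums were 2849 to 4198 on the IEL, 197 to 278 on the Naive-like and 600 to 869 on the Type-1 arrays. The sums in IELs rest mainly on Tyrobp and Fcer1g, which averaged 10.3 and 11.0 there. Ncr1, Klrb1c and Eomes averaged 4.26, 4.33 and 4.05 in IELs and 6.46, 5.59 and 7.46 in Type-1 cells. The mean log2 level of the 6 genes was 6.60 to 6.69 on the IEL and 6.31 to 6.96 on the Type-1 arrays. Trac, Trbc1, Trbc2 and Trdc had no row of 1 symbol, so the share of αβ T cells cannot be judged from the receptor chains. Of 3 measured αβ T cell genes Trat1, a T cell receptor associated protein, was called. It was higher in IELs by 1.49 against Naive-like and 3.11 against Type-1 cells, and Type-1 minus Naive-like cells was -1.62. Cd4 was not called in IELs (-0.19 and -0.27), and neither was Cd40lg (0.03 and -0.66). Of 8 regulatory T cell genes 1 was called higher against Naive-like cells, Ctla4 (2.65), and 3 higher and 1 lower against Type-1 cells. The 3 higher were Ctla4, Ikzf2 (mean 7.72 in IELs and 5.99 in Type-1 cells) and Ikzf4 (5.92 and 4.93). The 1 lower was Izumo1r (5.70 and 7.22). Foxp3, the defining factor of regulatory T cells, was 3.73 to 4.14 in IELs and 3.92 to 4.49 elsewhere.

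Tnfrsf9 encodes 4-1BB, which is induced on activated T cells and promotes their survival. Its level was 7.94, 7.89 and 8.28 on the IEL arrays, 5.87, 5.75 and 6.06 on the Naive-like arrays, and 5.77, 6.26 and 5.94 on the Type-1 arrays. Every IEL array lay above every lymph node array, and the lymph node subsets overlapped. The mean was 8.03 ± 0.21 in IELs, 5.89 ± 0.15 in Naive-like and 5.99 ± 0.25 in Type-1 cells (SD, n = 3). IELs were 2.14 ± 0.21 (SE) higher than Naive-like cells, a fold of 4.41 (adjusted p = 4.09e-05, limma), and 2.04 ± 0.21 higher than Type-1 cells, a fold of 4.12 (adjusted p = 7.20e-05, limma). Without the date-coded arrays the differences were 2.10 and 1.90, and between the date-coded arrays 2.22 and 2.33. Tnfrsf9 kept both calls without any 1 of the arrays. Type-1 cells differed from Naive-like cells by 0.10, with a 95% confidence interval from -0.35 to 0.55.

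Tnfrsf1b encodes TNFR2, which has no death domain and binds TNF, most strongly in its membrane form. It read 7.89, 8.83 and 9.44 in IELs, 6.79, 6.91 and 6.73 in Naive-like cells, and 5.39, 6.71 and 6.98 in Type-1 cells. IEL arrays were again all above the lymph node arrays, and they and the Type-1 arrays were widely spread, while the Naive-like arrays lay close together. The means were 8.72 ± 0.78, 6.81 ± 0.09 and 6.36 ± 0.85 (SD, n = 3). IELs were 1.91 ± 0.42 (SE) higher than Naive-like cells, a fold of 3.76 (adjusted p = 0.0179, limma), and 2.36 ± 0.42 higher than Type-1 cells, a fold of 5.13 (adjusted p = 0.00504, limma). Within the arrays without the date code the differences were 1.51 and 2.31, and between the date-coded arrays 2.72 and 2.46. The call against Naive-like cells was lost without IEL replicate 2 (adjusted p = 0.0739), IEL replicate 3 (0.0893), Naive-like replicate 1 (0.0664) or Naive-like replicate 3 (0.0713), in a range of 0.000717 to 0.207 over the 21 alternatives with the same null hypothesis. Against Type-1 cells the call was kept without any 1 array, and the level of Type-1 minus Naive-like cells, -0.45 (95% interval -1.36 to 0.47), became 0.03 without Type-1 replicate 1.

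Cd27 encodes the costimulatory receptor of CD70. Its level was 7.16, 8.06 and 8.39 in IELs, 9.42, 9.14 and 9.86 in Naive-like cells, and 9.37, 8.92 and 9.18 in Type-1 cells. All IEL arrays lay below all lymph node arrays, opposite to Tnfrsf9 and Tnfrsf1b, and the lymph node subsets overlapped. The means were 7.87 ± 0.64, 9.47 ± 0.36 and 9.16 ± 0.22 (SD, n = 3). IELs minus Naive-like cells was -1.61 ± 0.30 (SE), 3.04-fold lower (adjusted p = 0.00698, limma), and IELs minus Type-1 cells was -1.29 ± 0.30, 2.45-fold lower (adjusted p = 0.0286, limma). Without the date-coded arrays these differences were -1.67 and -1.54, and between the date-coded arrays -1.47 and -0.79. The call against Naive-like cells was kept without any 1 array. The call against Type-1 cells was lost without IEL replicate 1 (-0.94, adjusted p = 0.0639), IEL replicate 2 (0.0661), Type-1 replicate 1 (0.0949) or Type-1 replicate 3 (0.0616), in a range of 0.00561 to 0.0949 over the 21 alternatives. It was also lost with array medians subtracted (adjusted p = 0.0526, limma) and with only the subsets compared in the fit (0.0547).

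Tnfrsf4 and Tnfrsf18 encode OX40 and GITR, which are induced or raised on activated T cells and are high on regulatory T cells, and the RefSeq table places their genes next to each other on chromosome 4. Tnfrsf4 read 5.39, 5.5 and 6.19 in IELs, 6.49, 6.72 and 6.64 in Naive-like cells, and 5.78, 6.06 and 6.41 in Type-1 cells. Naive-like arrays lay above all others, and Tnfrsf4 was the 1 of the 9 receptors whose lymph node subsets did not overlap, where 11.4% of all genes did not (5.11% with Type-1 cells lower and 6.33% with them higher). No difference of Tnfrsf4 passed: IELs minus Naive-like cells was -0.92 ± 0.25 (SE; adjusted p = 0.0530, limma) and Type-1 minus Naive-like cells -0.53 ± 0.25 (adjusted p = 0.776, limma). The former was -1.16 in the arrays without the date code and -0.45 between the coded arrays. It passed without IEL replicate 3 (-1.17, adjusted p = 0.0178), Type-1 replicate 1 (0.0452) or Type-1 replicate 3 (0.0467), and with the date code as a term (0.0194), in a range of 0.0178 to 0.188 over the 21 alternatives.

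Tnfrsf18 read 8.37, 8.34 and 8.51 in IELs, 7.68, 7.30 and 8.16 in Naive-like cells, and 8.99, 8.0 and 8.38 in Type-1 cells. The IEL arrays lay within the range of the Type-1 arrays and above the Naive-like arrays. The difference of IELs from Naive-like cells was 0.70 ± 0.28 (SE; adjusted p = 0.250, limma) and Type-1 minus Naive-like cells 0.75 ± 0.28 (adjusted p = 0.624, limma), so neither passed. IELs minus Type-1 cells was -0.05 with a 95% interval from -0.65 to 0.55, and 0.22 without Type-1 replicate 1. These differences were 0.86, 1.01 and -0.14 in the arrays without the date code, and 0.36, 0.23 and 0.13 between the coded arrays. Neighbouring Tnfrsf4 and Tnfrsf18 thus had differences of opposite sign from Naive-like cells in both other subsets, though none of these 4 differences passed.

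Tnfrsf14 encodes HVEM, which binds LIGHT as a costimulator and the inhibitory receptors BTLA and CD160. Its arrays overlapped in every pair of subsets: 6.04, 6.41 and 6.66 in IELs, 6.31, 6.39 and 6.31 in Naive-like cells, and 5.92, 6.14 and 6.46 in Type-1 cells. The means were 6.37 ± 0.31, 6.34 ± 0.05 and 6.17 ± 0.28 (SD, n = 3). The IEL and Naive-like means differed by 0.03, with a 95% interval from -0.44 to 0.51, and became -0.04 after quantile normalization of the table and -0.11 without IEL replicate 3. It was -0.13 in the arrays without the date code and 0.35 between those with it. Tnfrsf14 was the receptor of the 9 with the highest p in the F test (adjusted p = 0.879, limma).

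**Figure D2:**
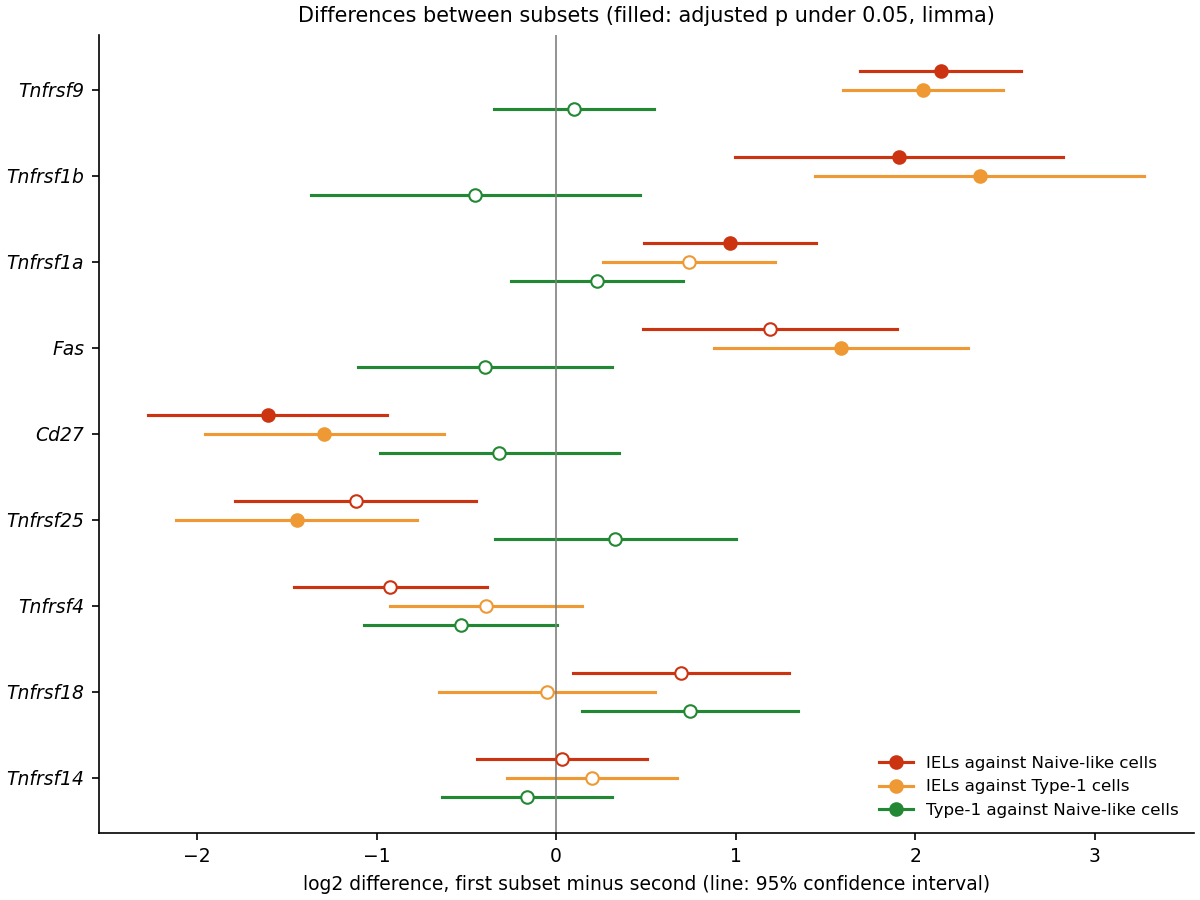
Log2 difference of each receptor gene in the 3 comparisons, first subset minus second, with its 95% confidence interval; filled points were called at an adjusted p under 0.05 over all genes (limma). The called receptors lie on both sides of 0 in the IEL comparisons, and no point of Type-1 against Naive-like cells is filled.

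Tnfrsf1a, Fas and Tnfrsf25 are the 3 receptors with a death domain. Tnfrsf1a, the receptor of soluble TNF, read 6.27, 6.48 and 6.95 in IELs, 5.51, 5.66 and 5.62 in Naive-like cells, and 5.85, 5.57 and 6.05 in Type-1 cells. All IEL arrays lay above the lymph node arrays. The means were 6.57 ± 0.35, 5.60 ± 0.08 and 5.83 ± 0.24 (SD, n = 3). IELs were 0.97 ± 0.22 (SE) higher than Naive-like cells, a fold of 1.96 (adjusted p = 0.0220, limma), and 0.74 ± 0.22 above Type-1 cells without passing (adjusted p = 0.0856, limma). Within arrays lacking the date code these differences were 0.79 and 0.66, and between the date-coded arrays 1.33 and 0.89. The call was lost without IEL replicate 2 (adjusted p = 0.0619), IEL replicate 3 (0.103), or Naive-like replicate 1 (0.0959), 2 (0.0604) or 3 (0.0658), in a range of 0.00287 to 0.195 over the 21 alternatives. The difference from Type-1 cells passed without IEL replicate 1 (0.89, adjusted p = 0.0474), and with the date code as a term (0.0428), in a range of 0.0364 to 0.320.

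Fas, the death receptor that removes activated lymphocytes, read 6.23, 5.79 and 6.76 in IELs, 4.47, 5.32 and 5.42 in Naive-like cells, and 5.05, 4.18 and 4.78 in Type-1 cells. IEL arrays lay above all others, and the lymph node subsets overlapped. The means were 6.26 ± 0.48, 5.07 ± 0.52 and 4.67 ± 0.44 (SD, n = 3). IELs were 1.59 ± 0.33 (SE) higher than Type-1 cells, a fold of 3.0 (adjusted p = 0.0126, limma), and the difference from Naive-like cells, 1.19 ± 0.33, did not pass (adjusted p = 0.0586, limma). Without the date-coded arrays the differences were 1.39 and 1.12, and between those arrays 1.97 and 1.34. The call was lost without IEL replicate 3 (1.34, adjusted p = 0.0687) or Type-1 replicate 2 (1.34, adjusted p = 0.0540), in a range of 0.00786 to 0.140 over the 21 alternatives. The difference from Naive-like cells passed without Type-1 replicate 1 (adjusted p = 0.0496) or 2 (0.0450), and with the date code as a term (0.0381), in a range of 0.0203 to 0.282.

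Tnfrsf25 encodes DR3, the receptor of TL1A, which costimulates T cells despite its death domain. It read 4.41, 5.34 and 5.01 in IELs, 5.88, 5.68 and 6.55 in Naive-like cells, and 5.89, 6.69 and 6.52 in Type-1 cells. All IEL arrays lay below the lymph node arrays, so Tnfrsf25 ran opposite to the other death domain receptors. The means were 4.92 ± 0.47, 6.04 ± 0.46 and 6.37 ± 0.42 (SD, n = 3). IELs minus Type-1 cells was -1.44 ± 0.31 (SE), 2.72-fold lower (adjusted p = 0.0162, limma), and IELs minus Naive-like cells, -1.12 ± 0.31, did not pass (adjusted p = 0.0619, limma). Arrays lacking the date code gave -1.42 and -0.91, and the date-coded arrays -1.50 and -1.53. The call was lost without IEL replicate 1 (-1.19, adjusted p = 0.0544), IEL replicate 3 (0.0523) or Type-1 replicate 2 (0.0674), in a range of 0.00529 to 0.124 over the 21 alternatives. The difference from Naive-like cells passed without Type-1 replicate 1 (adjusted p = 0.0416), and with the date code as a term (0.0498), in a range of 0.0270 to 0.406.

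The date-coded array was the highest of the 3 IEL arrays in 8 of the 9 receptors, where this held for 29.5% of all genes, and Tnfrsf25 was the exception. In Naive-like cells it was highest in 5 of 9 (37.3% of all genes) and in Type-1 cells in 4 of 9 (31.7%). All 4 receptors called against Naive-like cells and all 5 called against Type-1 cells kept their direction within the arrays without the code and between those with it. With only the 6 arrays that lack the code, Tnfrsf9 passed in both comparisons, with differences of 2.10 and 1.90, and Tnfrsf1b passed against Type-1 cells, at 2.31; no other receptor did.

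**Figure D3:**
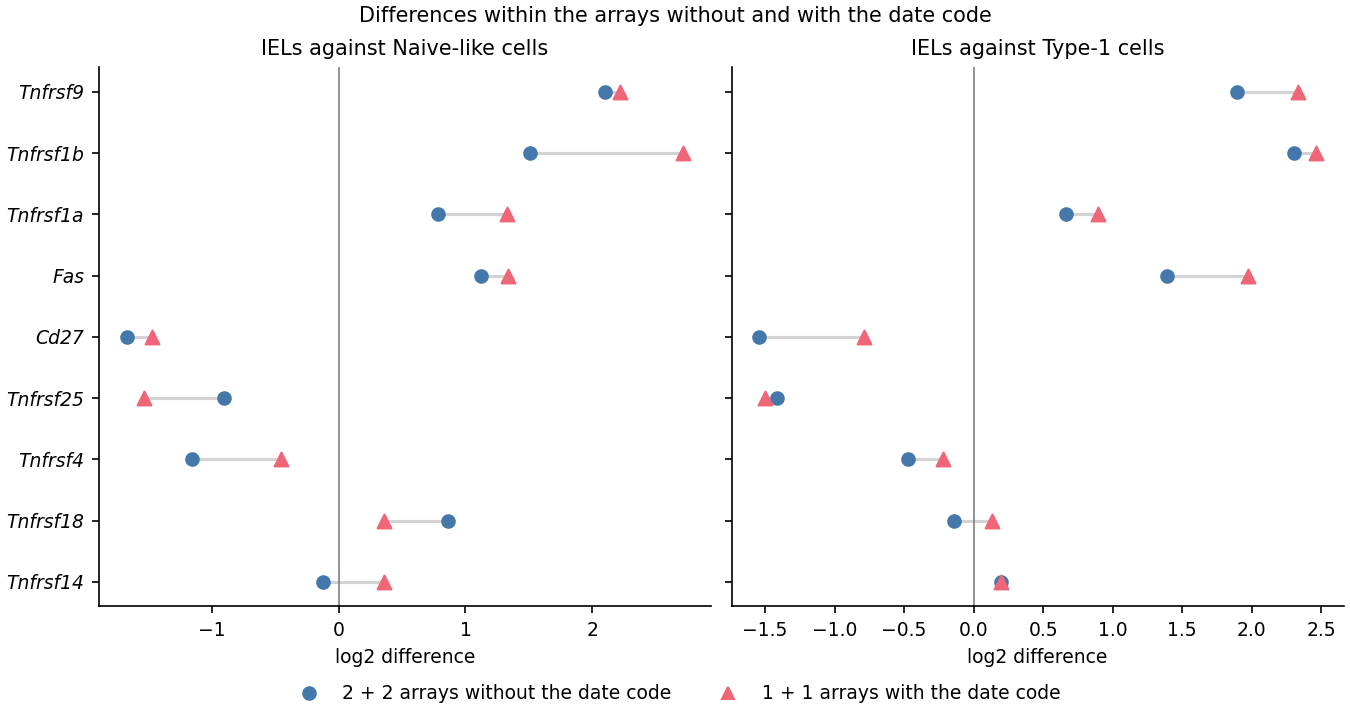
Log2 difference of each receptor gene between IELs and each lymph node subset, computed from the 2 + 2 arrays without the date code (circles) and from the 1 + 1 arrays with it (triangles). Both values lie on the same side of 0 for Tnfrsf9, Tnfrsf1b, Tnfrsf1a, Fas, Cd27, Tnfrsf25 and Tnfrsf4 in both panels, and on opposite sides for Tnfrsf14 on the left and Tnfrsf18 on the right.

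Ligands and binding partners of these receptors were measured on the same arrays. Of 12, 3 were called higher in IELs against Naive-like cells (Fasl, Cd160 and Tnfsf9) and 3 lower (Btla, Ltb and Tnfsf15). Against Type-1 cells the 3 higher were again Fasl, Cd160 and Tnfsf9, and the 2 lower were Btla and Ltb. Over all genes 5.19% and 5.14% were called in these comparisons. Between Type-1 and Naive-like cells Fasl alone was called, where 0.284% of all genes were. The median difference of the 12 was -0.07, -0.32 and 0.13 in these comparisons, beside -0.01, -0.03 and 0.03 over all genes.

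Fasl, the ligand of Fas and a weapon of cytotoxic lymphocytes, read 9.09, 9.76 and 9.33 in IELs, 4.40, 4.62 and 4.33 in Naive-like cells, and 7.27, 7.08 and 6.37 in Type-1 cells. No arrays of any pair of subsets overlapped, with IELs highest and Type-1 cells between. IELs were 4.94 ± 0.26 (SE) higher than Naive-like cells, a fold of 30.8 (adjusted p = 4.27e-07, limma), and 2.49 ± 0.26 higher than Type-1 cells (adjusted p = 0.000102, limma). Type-1 cells were 2.46 ± 0.26 higher than Naive-like cells (adjusted p = 0.000950, limma). For Fas itself the lymph node subsets overlapped, and Type-1 minus Naive-like cells was -0.39 (95% interval -1.10 to 0.31). The 3 Fasl differences were 4.92, 2.25 and 2.66 in the arrays without the date code and 5.00, 2.96 and 2.04 between those with it.

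Tnfsf9, the ligand of 4-1BB, read 5.40, 5.80 and 5.96 in IELs, 4.48, 5.03 and 4.63 in Naive-like cells, and 4.20, 4.33 and 4.76 in Type-1 cells. Its IEL arrays lay above all others, as for its receptor gene Tnfrsf9. IELs were 1.00 ± 0.24 (SE) higher than Naive-like cells (adjusted p = 0.0270, limma) and 1.29 ± 0.24 higher than Type-1 cells (adjusted p = 0.00605, limma). These differences were 0.84 and 1.33 in the arrays without the date code and 1.33 and 1.20 between those with it. The call against Naive-like cells was lost without IEL replicate 2 (adjusted p = 0.103) or 3 (0.123), or Naive-like replicate 1 (0.132) or 3 (0.0956).

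The partners of HVEM moved in opposite directions around an HVEM gene with no called difference. Cd160, which binds HVEM on cytotoxic and intraepithelial T cells, read 8.03, 7.56 and 7.84 in IELs, 5.77, 5.57 and 5.98 in Naive-like cells, and 6.29, 6.50 and 6.86 in Type-1 cells. Btla, an inhibitory receptor, read 4.94, 3.92 and 4.41 in IELs, 6.84, 6.77 and 7.31 in Naive-like cells, and 6.12, 6.40 and 7.14 in Type-1 cells. Neither gene's IEL arrays overlapped those of the lymph node subsets. IELs minus Naive-like cells was 2.04 ± 0.22 (SE) for Cd160 (adjusted p = 0.000106, limma) and -2.55 ± 0.31 for Btla (adjusted p = 0.000282, limma). IELs minus Type-1 cells was 1.26 ± 0.22 for Cd160 (adjusted p = 0.00439, limma) and -2.13 ± 0.31 for Btla (adjusted p = 0.00128, limma). Without the date-coded arrays, IELs minus Naive-like cells was 2.12 and -2.38, and between the coded arrays 1.86 and -2.90. IELs minus Type-1 cells was 1.40 and -1.83 without the coded arrays, and 0.98 and -2.72 between them. Tnfsf14, which encodes LIGHT, was not called (0.04 against Naive-like cells, -0.51 against Type-1 cells).

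Ltb encodes lymphotoxin β, which joins lymphotoxin α in a membrane trimer that binds the lymphotoxin β receptor, a relative of the 9 receptors. It read 9.08, 9.03 and 8.54 in IELs, 10.92, 10.44 and 11.13 in Naive-like cells, and 10.83, 10.89 and 11.14 in Type-1 cells, so that the IEL arrays were lowest. Ltb in IELs differed from Naive-like cells by -1.95 ± 0.23 (SE; adjusted p = 0.000255, limma) and from Type-1 cells by -2.07 ± 0.23 (adjusted p = 0.000178, limma). In the arrays without the date code the differences were -1.63 and -1.81, and between the coded arrays -2.59 and -2.60. Lymphotoxin β on its own is not known as a ligand of the 9 receptors, and Ltb stood in the list as the partner of lymphotoxin α. Tnf and Lta, whose products bind TNFR1 and TNFR2, did not pass. Tnf was -0.57 and Lta -0.91 against Naive-like cells, and -0.35 and -1.04 against Type-1 cells.

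Tnfsf15, which encodes the DR3 ligand TL1A, read 3.16, 3.89 and 3.50 in IELs, 4.60, 4.49 and 4.15 in Naive-like cells, and 3.99, 4.24 and 4.06 in Type-1 cells. Its means of 3.52, 4.41 and 4.10 all lay below the median level of all genes, 4.52. Without detection calls these values do not show that Tnfsf15 was expressed in any subset. IELs minus Naive-like cells was -0.90 ± 0.22 (SE; adjusted p = 0.0373, limma), lost without IEL replicate 1 (adjusted p = 0.116) or 3 (0.115), or Naive-like replicate 1 (0.163) or 2 (0.127). The differences were -1.02 in the arrays without the date code and -0.65 between the coded arrays, and -0.58 against Type-1 cells, which did not pass. Cd70, the ligand of CD27, read 1.68 to 2.42 on the 9 arrays and was not called (-0.08 against Naive-like cells, 95% interval -0.52 to 0.36). Tnfsf4 and Tnfsf18, the ligands of OX40 and GITR, were not called either, with -0.06 and -0.07 against Naive-like cells.

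**Figure D4:**
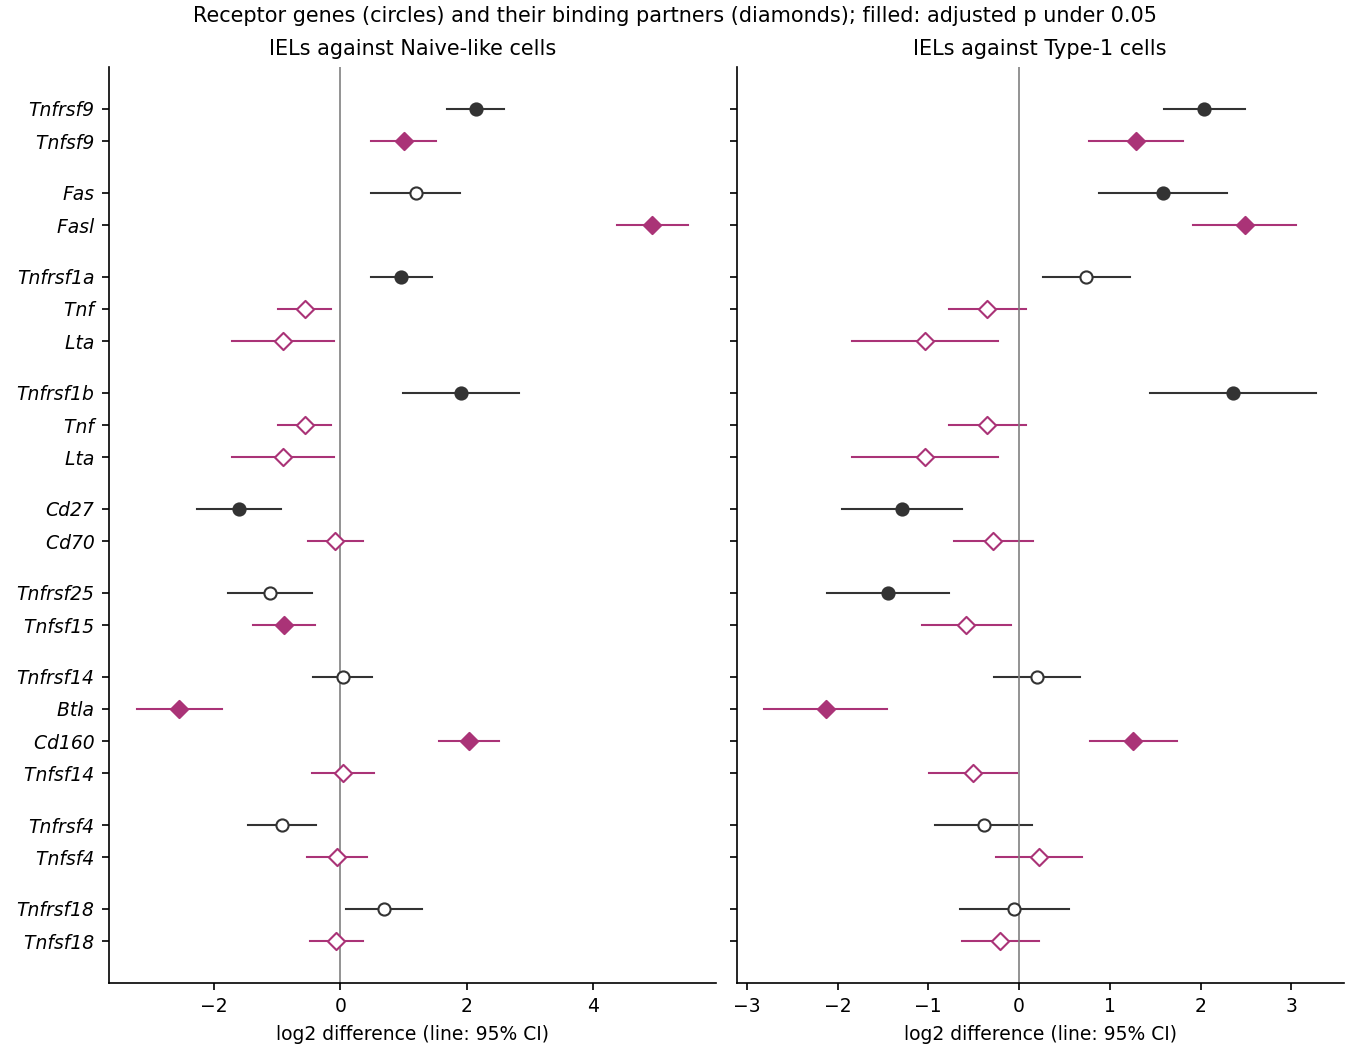
Log2 differences with 95% confidence intervals for each receptor gene (circles) above its ligands and partners (diamonds), IELs against Naive-like cells on the left and against Type-1 cells on the right; filled symbols were called at an adjusted p under 0.05 (limma). Tnfrsf9 and Tnfsf9 were both higher in IELs, Fasl had the largest difference at 4.94, and Btla and Cd160 lay on opposite sides of Tnfrsf14.

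Of 19 other receptors of the superfamily, in IELs 0 were called higher and 2 lower against Naive-like cells, and 0 were higher and 1 lower than in Type-1 cells, where 5.19% and 5.14% of all genes were called (1.62% and 1.41% lower). The medians were -0.04 and -0.17. Between the lymph node subsets 0 of 19 were called by limma and 0 had an unadjusted p under 0.05, where 6.48% of all genes did. Tnfrsf26, a mouse gene beside the decoy receptor genes of TRAIL, read 4.73, 5.04 and 5.72 in IELs, 6.52, 6.52 and 7.11 in Naive-like cells, and 7.68, 7.04 and 6.90 in Type-1 cells. Its IEL arrays lay below all others, at -1.56 ± 0.30 (SE) from Naive-like (adjusted p = 0.00727, limma) and -2.05 ± 0.30 from Type-1 cells (adjusted p = 0.00124, limma). Tnfrsf22, its neighbour on the chromosome and a decoy receptor of the death ligand TRAIL, was -1.17 ± 0.24 from Naive-like cells (adjusted p = 0.0131, limma), lost without IEL replicate 2 (adjusted p = 0.0671) or 3 (0.0703), or Naive-like replicate 1 (0.0640) or 3 (0.0658). Tnfrsf23, next in that row of genes, was not called (-0.40). Among arrays lacking the date code Tnfrsf26 differed by -1.64 and -2.48, and Tnfrsf22 from Naive-like cells by -0.92, and the coded arrays gave -1.40 and -1.18, and -1.66. Tnfrsf8, the neighbour of Tnfrsf1b on chromosome 4, and Ltbr, which lies between Cd27 and Tnfrsf1a on chromosome 6 with 1 further protein-coding gene on each side, were not called, at -0.04 each against Naive-like cells. Of the 9 receptor genes 6 lie on chromosome 4, 2 on chromosome 6 and 1 on chromosome 19.

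Among TRAF adaptors and regulators near the receptors, 16 of 18 had a row, and 3 were higher and 1 lower in IELs in either comparison, where 5.19% and 5.14% of all genes were called. The medians were 0.08 and 0.15. Traf5, an adaptor of CD27, OX40 and GITR, was 1.20 ± 0.21 (SE) higher than in Naive-like cells (adjusted p = 0.00355, limma) and 0.91 ± 0.21 higher than in Type-1 cells (adjusted p = 0.0223, limma). Traf4, a family member that also regulates GITR signalling, was 1.20 ± 0.30 (adjusted p = 0.0397, limma) and 1.92 ± 0.30 (adjusted p = 0.00223, limma) higher. Tank, which binds TRAF proteins and dampens NF-κB, was 0.96 ± 0.25 (adjusted p = 0.0471, limma) and 1.54 ± 0.25 (adjusted p = 0.00292, limma) higher. Traf3ip3, a TRAF3-binding protein, was the 1 lower, at -1.15 ± 0.27 in both (adjusted p = 0.0267 and 0.0271, limma). Traf1 and Traf2, adaptors of 4-1BB and TNFR2, were not called, at -0.18 and 0.25 against Naive-like cells. In the arrays without the date code the differences from Naive-like cells were 1.24, 1.00, 1.15 and -0.90 for Traf5, Traf4, Tank and Traf3ip3, and between the coded arrays 1.13, 1.59, 0.60 and -1.64. From Type-1 cells they were 0.74, 1.84, 1.40 and -1.07, and between the coded arrays 1.25, 2.09, 1.80 and -1.32. Traf4 against Type-1 cells, Tank against Type-1 cells and Traf5 against Naive-like cells kept their calls without any 1 array. Tank against Naive-like cells lost its call without any array but Naive-like replicate 3 (adjusted p 0.0516 to 0.205), and Traf4 without IEL replicate 2 or 3, any Naive-like array or Type-1 replicate 2 (0.0518 to 0.176). Traf3ip3 lost it without IEL replicate 1 or 3 or replicate 1 or 3 of the subset compared (0.0594 to 0.119), and Traf5 against Type-1 cells without IEL replicate 2 or 3 or Type-1 replicate 1 or 3 (0.0643 to 0.0996).

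In the NF-κB pathway 25 of 27 kinases, subunits and inhibitors had a row, and 2 were higher and 1 lower in IELs in either comparison, beside 5.19% and 5.14% of all genes called. The medians were 0.10 and 0.24. Tnfaip3, which encodes A20, an inhibitor of NF-κB induced by TNF receptors, read 8.96, 9.90 and 10.14 in IELs, 6.00, 7.11 and 6.61 in Naive-like cells, and 6.00, 4.96 and 6.74 in Type-1 cells. Every IEL array was above every lymph node array. IELs were 3.09 ± 0.44 (SE) higher than Naive-like cells (adjusted p = 0.000890, limma) and 3.77 ± 0.44 higher than Type-1 cells (adjusted p = 0.000230, limma), and both calls held without any 1 array. Rel, the c-Rel subunit, read 8.80, 9.39 and 10.03 in IELs and 7.72 to 8.21 on the lymph node arrays. Its differences were 1.36 ± 0.28 (adjusted p = 0.0120, limma), lost without Naive-like replicate 3 (adjusted p = 0.0584), and 1.40 ± 0.28 (adjusted p = 0.0112, limma). Ikbke, an IκB kinase relative, was -1.62 ± 0.31 from Naive-like (adjusted p = 0.00772, limma) and -1.28 ± 0.31 from Type-1 cells (adjusted p = 0.0349, limma), the latter lost without any IEL array, Naive-like replicate 1 or Type-1 replicate 1 or 3 (0.0558 to 0.106). Among arrays lacking the date code, Tnfaip3 differed by 2.88 and 3.95, Rel by 0.97 and 1.13, and Ikbke by -1.49 and -1.20. The coded arrays gave 3.52 and 3.40 for Tnfaip3, 2.16 and 1.95 for Rel, and -1.88 and -1.42 for Ikbke. Nfkb2, Rela, Relb and the inhibitor Nfkbia were not called, with -0.11, 0.10, 0.07 and -0.42 against Naive-like cells. Between the lymph node subsets 0 of 16 TRAF and 0 of 25 NF-κB genes were called by limma. At an unadjusted p under 0.05 there were 2 and 1, where 6.48% of all genes were.

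The death receptor and caspase list holds Fas, Tnfrsf1a and Tnfrsf25 themselves, and 19 of its 22 genes had a row. In it 3 were higher and 0 lower than in Naive-like cells, and 3 higher and 1 lower than in Type-1 cells, with medians of 0.10 and 0.14 and all-gene shares of 5.19% and 5.14%. Apart from the receptors, Bcl2l11 (BIM), a trigger of mitochondrial death, was 1.49 ± 0.29 (SE) higher than in Naive-like cells (adjusted p = 0.00780, limma) and 1.37 ± 0.29 higher than in Type-1 cells (adjusted p = 0.0144, limma). Mlkl, the effector of necroptosis, was 1.28 ± 0.21 higher than in Naive-like cells (adjusted p = 0.00283, limma). Apaf1, the core of the apoptosome, was 1.46 ± 0.31 higher than in Type-1 cells (adjusted p = 0.0164, limma). Fadd, Casp8 and Cflar of this list were not called, at 0.11, -0.33 and -0.61 against Naive-like cells. The calls of Bcl2l11 and Apaf1 against Type-1 cells were lost without IEL replicate 2 (adjusted p = 0.0547 and 0.0531) or 3 (0.0578 and 0.0872). In the arrays without the date code Bcl2l11 differed by 1.21 and 1.08, Mlkl by 1.21 and Apaf1 by 1.59, and between the coded arrays by 2.04 and 1.96, 1.40 and 1.20.

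Among survival genes 9 of 11 had a row, and 4 were called higher in IELs against Naive-like cells and 2 against Type-1 cells, where 3.57% and 3.73% of all genes were called higher. Bcl2a1a, an A1 survival gene induced by NF-κB, read 8.16, 7.24 and 7.49 in IELs, 4.19, 5.18 and 4.39 in Naive-like cells, and 6.33, 5.41 and 5.55 in Type-1 cells. Its IEL arrays lay above all others, by 3.04 ± 0.33 (SE; adjusted p = 0.000118, limma) and 1.87 ± 0.33 (adjusted p = 0.00503, limma). Mouse A1 genes are near-identical copies, so which copy the row reports is uncertain. Birc5 (survivin), which dividing cells express, was 1.30 ± 0.28 (adjusted p = 0.0154, limma) and 1.11 ± 0.28 higher (adjusted p = 0.0405, limma). Bcl2 and Pim1 were 0.81 ± 0.20 (adjusted p = 0.0312, limma) and 0.87 ± 0.22 (adjusted p = 0.0406, limma) higher than in Naive-like cells. The Bcl2 call was lost without IEL replicate 2 or 3 or any Naive-like array (0.0894 to 0.144), that of Pim1 without any array but IEL replicate 2 and Type-1 replicate 1 (0.0521 to 0.153), and those of Birc5 without IEL replicate 2 or 3 or Naive-like replicate 2 against Naive-like cells (0.0757 to 0.0823), and without any array but IEL replicate 1 and Naive-like replicate 2 against Type-1 cells (0.0501 to 0.178). In the arrays without the date code Bcl2a1a differed by 3.01 and 1.83, Birc5 by 1.28 and 0.95, Bcl2 by 0.67 and Pim1 by 0.82. Between the coded arrays these were 3.10 and 1.94, 1.35 and 1.43, 1.08, and 0.96. Bcl2l1 (BCL-XL) and Mcl1 were not called, at 0.38 and -0.08 against Naive-like cells.

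**Figure D5:**
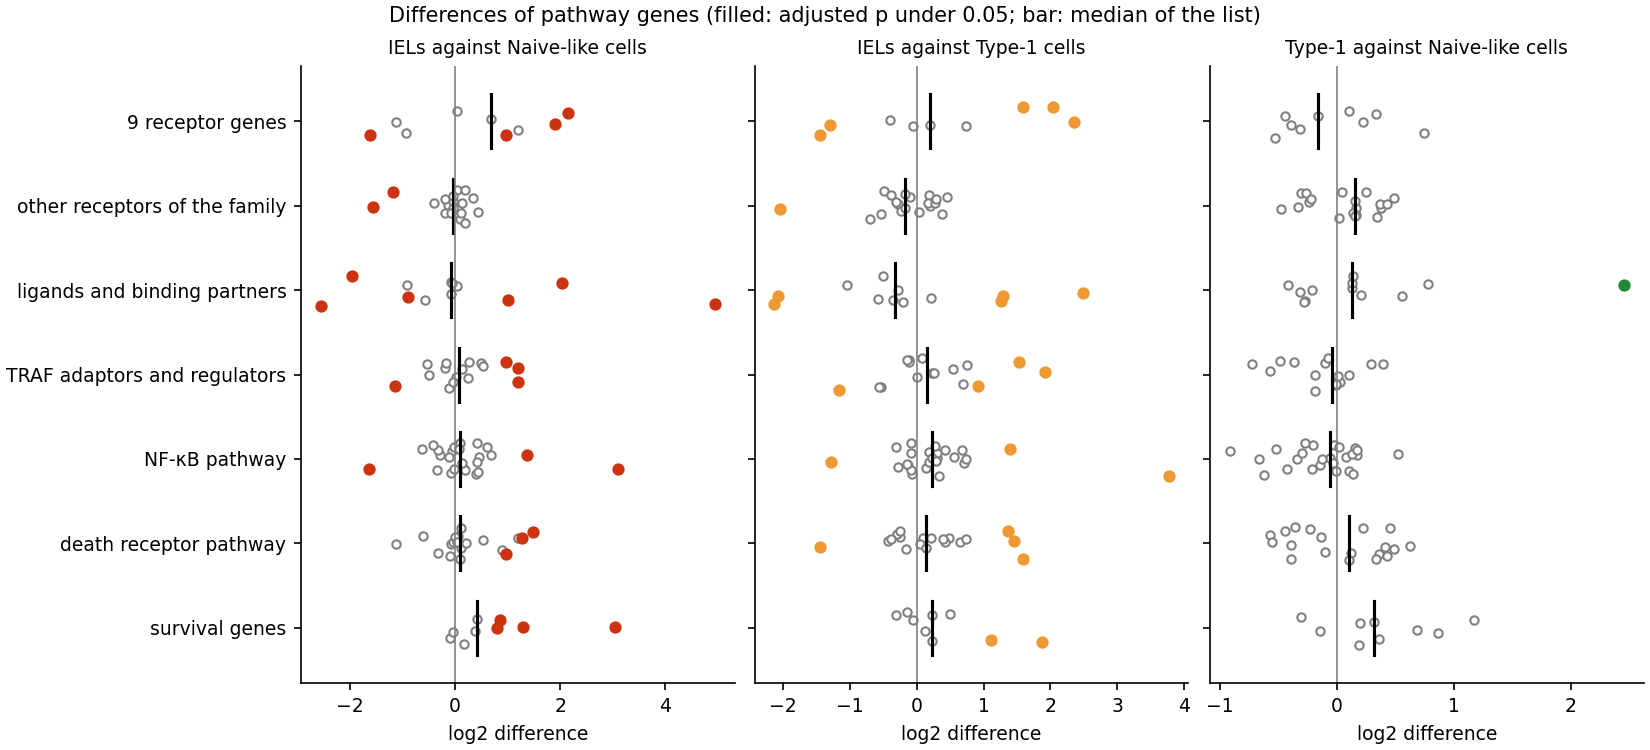
Log2 differences of the 9 receptor genes and the 6 related gene lists in the 3 comparisons; each point is 1 gene, filled where called at an adjusted p under 0.05 (limma), the vertical bar is the median of the list, and vertical scatter only separates points. Called genes lie on both sides of 0 in most lists of the IEL comparisons, and Fasl, at 2.46, is the 1 filled point of Type-1 against Naive-like cells.

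Between Type-1 and Naive-like cells no gene of these lists other than Fasl was called by limma, and those with the smallest p are given as values. They were Tnfrsf22 (-0.48) and Ngfr (-0.31) among the other receptors, Traf4 (-0.72) and Tank (-0.57) among the adaptors, and Tab1 (-0.92) and Map3k7 (-0.62) in the NF-κB list. In the death list they were Mlkl (0.62) and Bak1 (-0.55), and in the survival list Bcl2 (0.86) and Bcl2a1a (1.17). At an unadjusted p under 0.05 there were 2 of 19 genes of the death list and 3 of 9 of the survival list, where 6.48% of all genes were.

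For the 6 receptors called in the F test, the genes whose levels ran most closely with theirs over the 9 arrays were sought among named protein-coding genes. These arrays share 3 subsets, so any gene that separates IELs runs with such a receptor, and the correlations are a description with no test. Tnfrsf9 ran with Ppp1r3b (Pearson's r = 0.994), a glycogen-targeting subunit of protein phosphatase 1, Cpd (0.993), a carboxypeptidase, and Adh1 (0.992), an alcohol dehydrogenase. Ppp1r3b averaged 7.89 in IELs, 5.17 in Naive-like and 5.15 in Type-1 cells, the same order of levels as Tnfrsf9 in IELs against the rest. Tnfrsf1b ran with Itgav (0.992), the integrin αV chain, Lpin2 (0.982) and Kif13b (0.980). Tnfrsf1a ran with Afdn (0.985), a junction protein, Slc22a15 (0.981) and Cysltr2 (0.976), a leukotriene receptor. Fas ran with Cited2 (0.983), Ppp2r2d (0.958) and Zfp672 (0.958). Cd27 ran with Bach2 (0.981) and Myb (0.973), transcription factors of naive and progenitor lymphocytes, and Rgs19 (0.969). Bach2 averaged 5.18 in IELs, 6.94 in Naive-like and 6.49 in Type-1 cells, and Myb 5.12, 8.42 and 7.76. Tnfrsf25 ran with Mllt6 (0.991), Cdc25b (0.987), a cell cycle phosphatase, and Vars (0.986). Mllt6, Ppp2r2d and Zfp672 were themselves not called in IELs against either lymph node subset.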

How the data were processed

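The authors deposited log2 values for 41345 array rows on 9 arrays, and the submitters' processing notes name oligo and RMA. RMA scales all arrays jointly and reduces the probes of a transcript to 1 value. No version, filter or genome build was given in the sources used here. Detection calls do not come with the values, so a dim gene has no stated background and its differences are compressed.

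Groups were taken from the sample titles. Rows were named by the platform annotation: 23521 had 1 symbol, 1814 several and 16010 none. Rows with 1 symbol gave 22180 genes, and the row with the highest mean stood for a gene with several. Limma 3.58.1 in R 4.3.3 fitted 1 mean per subset to all 9 arrays (lmFit, eBayes without trend, two-sided, 6 residual and 6.00 prior degrees of freedom). The p-values were adjusted by Benjamini-Hochberg over these genes, and 0.05 was the threshold. The fit was tested on simulated data. Precision is limited by 3 arrays per subset.

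The 9 receptors and the gene lists were chosen with earlier results of these data known. Named genes were, per list and comparison, up to 4 called genes with the largest difference, or the 2 with the smallest p where none was called, all ligands, and the 3 genes with the highest Pearson r to each receptor called in the F test, among genes above the median level in some subset. Traf1, Traf2, Tnfrsf8, Ltbr, Tnfrsf23, Nfkb2, Rela, Relb, Nfkbia, Fadd, Casp8, Cflar, Bcl2l1 and Mcl1 are named beyond this by their known role, with their values seen. Promoters came from RefSeq sequences of GRCm38.p6, of which the 250 bases before each start were searched. List genes with no row of 1 symbol are not analysed here.

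The 22 alternatives changed the genes tested, the array scaling, the spread estimate, the row standing for a gene, the threshold, the samples in the fit, the replicate block and the date code, or left out each array in turn.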

Additional observations from a re-analysis of the deposited data

How the results depend on the processing

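Tnfrsf9 kept its direction and its calls against both lymph node subsets in all 22 alternatives, and Cd27 and Tnfrsf1b kept their directions in these comparisons. Of the 9 receptors, the 4 called against Naive-like cells became 7 without dim genes or with the date code as a term, Tnfrsf4, Tnfrsf25 and Fas being added, and 1 with a minimum log2 difference of 1 or in the arrays without the date code. They ranged from 2 to 7 when each array was left out in turn. The 5 called against Type-1 cells became 1 with that minimum and 2 without the date-coded arrays, and ranged from 3 to 5 with an array left out. The 6 called in the F test became 3 with array medians subtracted and 1 without the date-coded arrays, and ranged from 3 to 5. Over all genes, the counts against Naive-like cells (1152), Type-1 cells (1140), between the lymph node subsets (63) and in the F test (1200) fell to 534, 565, 20 and 527 without the date-coded arrays, which leave 2 arrays per subset. With a minimum difference of 1 the first 3 were 250, 204 and 14, and array weights gave 1920 against Naive-like cells and 1884 in the F test. With an array left out they ran from 826 to 1227, 724 to 1308, 34 to 87 and 771 to 1392. Other causes were not tested.

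Uncalled values changed sign in few cases. IELs minus Naive-like cells for Tnfrsf14 became -0.040 after quantile normalization and -0.13 without the date-coded arrays, and ran from -0.11 to 0.20 with an array left out. With an array left out, Type-1 minus Naive-like cells ran from -0.034 to 0.21 for Tnfrsf9 and from -0.76 to 0.033 for Tnfrsf1b, and IELs minus Type-1 cells from -0.28 to 0.22 for Tnfrsf18.

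Replicate numbers recur across subsets but the labels do not say that they pair samples. Deviations of same-numbered arrays from their subset means correlated at -0.01 to 0.16 for replicates 1 and 2. For the date-coded replicate 3 they correlated at 0.23 to 0.38, against -0.29 to 0.21 for different numbers. The values of replicate 3 thus lay above all those for different numbers. Because the labels give no pairing, the main fit did not take the numbers as pairs. With the replicate number as a block, 7 receptors were called against Naive-like cells, again with Tnfrsf4 (adjusted p = 0.0209), Tnfrsf25 (0.0270) and Fas (0.0446) added, 5 against Type-1 cells and 0 between the lymph node subsets.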
